A study of Mus musculus with 2 samples.

Results

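The 32 genes described here mark the endothelium, the cell layer that lines blood and lymphatic vessels. They were taken by name: every array probe that is no control spot and whose gene name is that of a member entered, which gave 43 probes for 32 of 32 members among 29924 gene names on the array. All 32 members passed the filter on dim signals, as did 40 of their 43 probes and 20438 gene names in all. A gene is represented by its brightest passing probe. The members fall into 3 arterial genes (Gja4, Gja5 and Sox17), 2 venous genes (Nr2f2 and Aplnr), 2 lymphatic genes (Prox1 and Flt4) and 25 genes of endothelium in general, called pan-endothelial below.

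RNA came from ureters dissected from NMRI mouse embryos at E14.5, in mid-gestation. Rbpj-cKO embryos carried 1 Cre allele at the Tbx18 locus and 2 floxed Rbpj alleles, Tbx18(cre/+);Rbpj(fl/fl). Control embryos are labelled Rbpj(fl/?): they carried a floxed Rbpj allele, the other allele is not stated, and no Cre is given. Tbx18 is transcribed in the mesenchyme of the developing ureter, so the Cre is driven in cells around the vessels' endothelium, and the labels do not say whether any endothelial cell recombined. Each of 2 two-colour arrays held Rbpj-cKO and control RNA together. Replicate 1 compared male embryos, with Rbpj-cKO in red (AlexaFluor647) and control in green (AlexaFluor555). Replicate 2 compared female embryos with the dyes exchanged. Sex and dye orientation thus cannot be told apart, and how many embryos gave each RNA is not stated.

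Endothelial cells are held together by adherens and tight junctions and depend on growth factor receptors, above all those for vascular endothelial growth factor (VEGF) and the angiopoietins. Notch receptors, whose nuclear effector is the DNA-binding protein RBPJ, are known for promoting arterial over venous identity within the endothelium, while the nuclear receptor NR2F2 favours the venous state and PROX1 the lymphatic state. In the ureter, a plexus of vessels runs through the mesenchymal wall, and the 2 arrays ask how the RNA of these vessels compares when Rbpj is deleted with the mesenchymal Cre.

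In these whole ureters no endothelial member reached a 1.5-fold difference between Rbpj-cKO and control on either array. The widest ratio of any of the 40 passing probes was 1.41-fold in the main processing, for a second probe of Sox17. With the scanner software's processed signals or in the authors' deposited table, second probes of Sox17 and Vwf passed 1.5-fold on replicate 2. Their log2 ratios there were 0.61 and 0.71. Vwf and Gja5 were higher in Rbpj-cKO on both arrays and Tek was lower on both, each by less than 1.5-fold, and none of the 32 passed the test at an adjusted p under 0.05 (limma, Benjamini-Hochberg over 20438 genes). The median log2 ratio of the pan-endothelial members was near 0 on both arrays, while the medians of the 3 arterial, 2 venous and 2 lymphatic members changed sign between the arrays and reached 0.26, 0.19 and 0.13 in size. In bulk RNA, fewer endothelial cells and less RNA per endothelial cell cannot be told apart.

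The probe for the deleted gene was lower in both Rbpj-cKO channels. The brighter of 2 Rbpj probes had levels of 2585 and 2765 in Rbpj-cKO against 5642 and 4280 in control on replicates 1 and 2, a log2 ratio of -1.13 and -0.63, and the dimmer probe gave -0.48 and -0.37. Whether they read a deleted exon was not determined here. Tbx18 itself had log2 ratios of 0.17 and -0.24. Between 67.7% and 70.1% of spots were well above background in each channel, and no spot was saturated. Across the 20438 genes the ratios of the arrays, both turned to Rbpj-cKO over control, ran against each other (Pearson r = -0.35 and Spearman rho = -0.47 across genes, which are not independent replicates), so the direction of a small ratio seen on 1 array often turned on the other. The dyes are stated in the labels and the direction of Rbpj kept to them on both arrays.

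To show what stands upstream of members on which the results turn, 4 promoters are printed from RefSeq (build GRCm38.p6, 300 bases around a transcript's start, gene strand, 5′ to 3′): those of the arterial connexins Gja5 and Gja4 and of the receptors Tek and Tie1. RefSeq promoters were matched for 17 of the 32 members (23 promoters). Capitals mark, on either strand, the letters TGGGAA (core of the RBPJ motif), CGGAAG or AGGAAG (ETS) and ACAAT (SOX). None of these motifs contains another. Gja5 lies at chr3:97032152-97032451 (plus strand), Gja4 at chr4:127313990-127314289 (minus), Tek at chr4:94739039-94739338 (plus) and Tie1 at chr4:118489800-118490099 (minus).
Gja5: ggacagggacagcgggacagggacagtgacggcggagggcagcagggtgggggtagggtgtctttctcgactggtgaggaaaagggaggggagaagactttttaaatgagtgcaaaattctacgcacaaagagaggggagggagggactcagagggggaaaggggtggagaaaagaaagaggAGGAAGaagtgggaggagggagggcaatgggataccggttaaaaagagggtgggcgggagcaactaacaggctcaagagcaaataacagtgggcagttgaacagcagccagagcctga
Gja4: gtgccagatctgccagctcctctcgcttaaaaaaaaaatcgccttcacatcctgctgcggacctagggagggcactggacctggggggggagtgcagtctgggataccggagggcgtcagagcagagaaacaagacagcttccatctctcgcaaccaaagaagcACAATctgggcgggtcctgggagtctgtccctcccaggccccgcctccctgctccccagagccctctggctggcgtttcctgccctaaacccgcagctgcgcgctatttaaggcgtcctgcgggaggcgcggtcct
Tek: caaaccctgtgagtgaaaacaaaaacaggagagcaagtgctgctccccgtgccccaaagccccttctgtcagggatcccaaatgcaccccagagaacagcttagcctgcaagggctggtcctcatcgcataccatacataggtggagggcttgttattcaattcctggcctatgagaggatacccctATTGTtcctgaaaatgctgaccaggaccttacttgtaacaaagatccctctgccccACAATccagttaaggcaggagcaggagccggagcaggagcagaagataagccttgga
Tie1: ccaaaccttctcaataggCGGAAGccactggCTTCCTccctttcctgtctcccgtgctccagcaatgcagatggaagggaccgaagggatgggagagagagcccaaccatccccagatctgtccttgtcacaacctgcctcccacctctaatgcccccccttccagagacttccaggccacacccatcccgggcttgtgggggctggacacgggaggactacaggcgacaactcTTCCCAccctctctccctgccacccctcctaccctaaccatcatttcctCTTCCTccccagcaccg

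The Gja5 window holds 1 ETS match, the Gja4 window 1 SOX match and the Tek window 2 SOX matches. The Tie1 window holds 1 RBPJ match and 3 ETS matches. The RBPJ letters were in 6 of the 23 member promoters (26.1%; Egfl7, Erg, Kdr, Prox1, Tal1 and Tie1) and in 25.6% of 32851 promoters of the same length. ETS letters were in 11 of 23 (47.8%) against 46.5%, and SOX letters in 6 of 23 (26.1%) against 31.0%. The shares were thus close to those of all promoters, and a match describes letters only.

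Levels are given as normalized intensity per channel. They can be set against the other channels of the same probe but not against another gene's probe. All members were measured in every channel: 31 of 32 had 4 of 4 spots well above background in all 4 channels, and Prox1 had 3 of 4 in the Rbpj-cKO channel of replicate 2. Member levels ran from 127 to 41519. The lowest signal among probes well above background lay between 78.8 and 82.2. Pecam1, Cdh5, Kdr, Tek and Tie1, used below as a short list of endothelial markers, were thus all detected in the dissected tissue of both genotypes. Of these, Pecam1 is also carried by platelets and leukocytes.

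**Figure D1:**
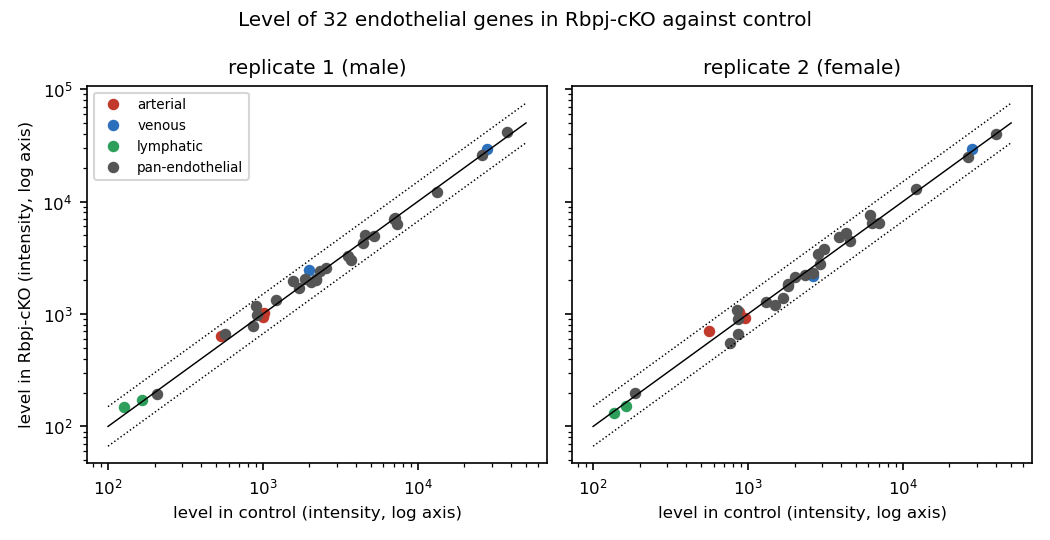
Level of each of the 32 endothelial genes in Rbpj-cKO (y axis) against control (x axis), in normalized intensity on log axes, for replicate 1 (male) and replicate 2 (female). The solid line marks equal levels and the dotted lines 1.5-fold; all 32 points lie between the dotted lines on both arrays.

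The receptors for VEGF and angiopoietins did not share a direction. Kdr (VEGF receptor 2, the main signalling receptor for VEGF-A on blood endothelium) had levels of 7137 in Rbpj-cKO and 7117 in control on replicate 1, and of 6426 and 6305 on replicate 2. Its channels differed less between genotypes than between arrays, with log2 ratios of 0.0041 and 0.027. Flt1 (VEGF receptor 1, which binds VEGF-A and limits its action on Kdr) measured 3015 against 3721 on replicate 1 and 3396 against 2846 on replicate 2. Rbpj-cKO was thus lower on the first array and higher on the second, at -0.30 and 0.25, and the groups overlap.

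Tek (the angiopoietin receptor TIE2, chr4:94540624-94540683 on build mm9) had levels of 785 in Rbpj-cKO and 864 in control on replicate 1, and of 661 and 864 on replicate 2. Both Rbpj-cKO channels lay below both control channels, as they also did for Cldn5 and Cd34 with smaller ratios. For Cldn5 this order rests on 7014 against 7018. It sets channels of different arrays against each other, and how many of all genes have such an order was not counted. The log2 ratios were -0.14 and -0.39, averaging -0.26 ± 0.18 (SD, n = 2 arrays) or 1.20-fold lower, with a 95% interval of -0.59 to 0.07 and an adjusted p of 0.99998 (limma). Tie1 (the co-receptor of TIE2, chr4:118144132-118144191) measured 1950 against 1570 and then 1378 against 1693. Its ratios of 0.31 and -0.30 almost mirrored each other, and the mean was 0.0080 with an interval of -0.41 to 0.43.

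The receptors of the BMP and TGF-beta family were close to level. Acvrl1 (ALK1, the type I receptor for BMP9 and BMP10) had 974 against 923 and 906 against 864, log2 ratios of 0.079 and 0.068. Eng (endoglin, its co-receptor) had 1338 against 1219 and 1289 against 1300, or 0.14 and -0.01. Acvrl1 was thus slightly higher on both arrays and Eng on the first only.

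Of the 5 junction and adhesion genes, Cldn5 alone kept its sign on both arrays. Pecam1 (CD31, an adhesion molecule of endothelial junctions that platelets and leukocytes also carry) had 660 in Rbpj-cKO and 570 in control on replicate 1, and 548 and 770 on replicate 2. The ratios were 0.21 and -0.49, the widest gap between arrays among the members. Cdh5 (VE-cadherin, the adherens junction cadherin of endothelium) was steadier, with 5067 against 4577 and 4464 against 4544, or 0.15 and -0.03. Cldn5 (the main claudin of endothelial tight junctions) measured 7014 against 7066 and 6499 against 7018, at -0.01 and -0.11. Esam (an immunoglobulin-family adhesion molecule of tight junctions) had ratios of -0.10 and 0.30. Icam2 (a leukocyte ligand on resting endothelium) had -0.13 and 0.09.

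Among the surface proteins, Emcn (endomucin, a sialomucin of veins and capillaries) was the single gene higher on both arrays, with 2027 against 1881 and 2144 against 2020, or 0.11 and 0.09. Cd34 (a sialomucin of endothelium that mesenchymal cells also carry) had 25918 against 25985 and 25014 against 26310, or -0.0037 and -0.073. Gpihbp1 (which holds lipoprotein lipase at the capillary surface) had -0.11 and -0.03. Plvap (the diaphragm protein of fenestrated capillaries) measured 4914 against 5218 and 5202 against 4287, which is -0.09 and 0.28. Robo4 (an endothelial roundabout receptor that stabilises vessels) went from -0.22 to 0.30 and Ecscr (an endothelial regulator of cell migration) from -0.06 to 0.33. For these last 3 genes Rbpj-cKO was lower in the male pair and higher in the female pair.

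Vwf had the largest mean ratio over both arrays among the members. It encodes von Willebrand factor, which endothelium and megakaryocytes store and which tethers platelets. Its brighter probe (chr6:125636551-125636610, mm9) read 1182 in Rbpj-cKO against 898 in control on replicate 1 and 1084 against 845 on replicate 2. Both Rbpj-cKO channels lay above both control channels, as they also did for Emcn and Nr2f2 with smaller ratios. How many of all genes have this order across arrays was not counted. The log2 ratios were 0.40 and 0.36, averaging 0.38 ± 0.025 (SD, n = 2) or 1.30-fold, with a 95% interval of 0.07 to 0.69. Its adjusted p was 0.99998 and its unadjusted p 0.025 (limma). It was the 1 member of 32 under an unadjusted 0.05, a limit that 376 of 20438 genes (1.84%) passed. The unadjusted p ran from 0.011 to 0.14 over the alternative settings. A second Vwf probe, dimmer and placed at chr6:125542106, read 132 against 134 and 138 against 115, with ratios of -0.02 and 0.27, so the probes of Vwf did not give the same picture. With the mean of its probes in place of the brighter one, the mean log2 ratio of Vwf was 0.25. Egfl7 (a secreted matrix protein of endothelium) read 41519 against 37810 and 39876 against 40243, at 0.14 and -0.01.

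On their brightest probes, the transcription factors had log2 ratios from -0.30 (Tal1) to 0.26 (Sox17), both on replicate 2. A second Sox17 probe, given below, had wider ratios. In the SoxF group, which directs vessel formation and differentiation, Sox7 had log2 ratios of -0.10 and 0.03, Sox18 of 0.02 and -0.18 and Sox17 of -0.08 and 0.26, and none kept its sign. Of the Ets factors, which bind many endothelial enhancers, Fli1 was lower on both arrays, at 2019 against 2198 and 2208 against 2335 (-0.12 and -0.08). Ets1 had 0.04 and -0.05, and Erg -0.08 and 0.10. Tal1 (a factor of both endothelium and red-cell precursors) read 1711 against 1714 and 1207 against 1486, at -0.0027 and -0.30.

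**Figure D2:**
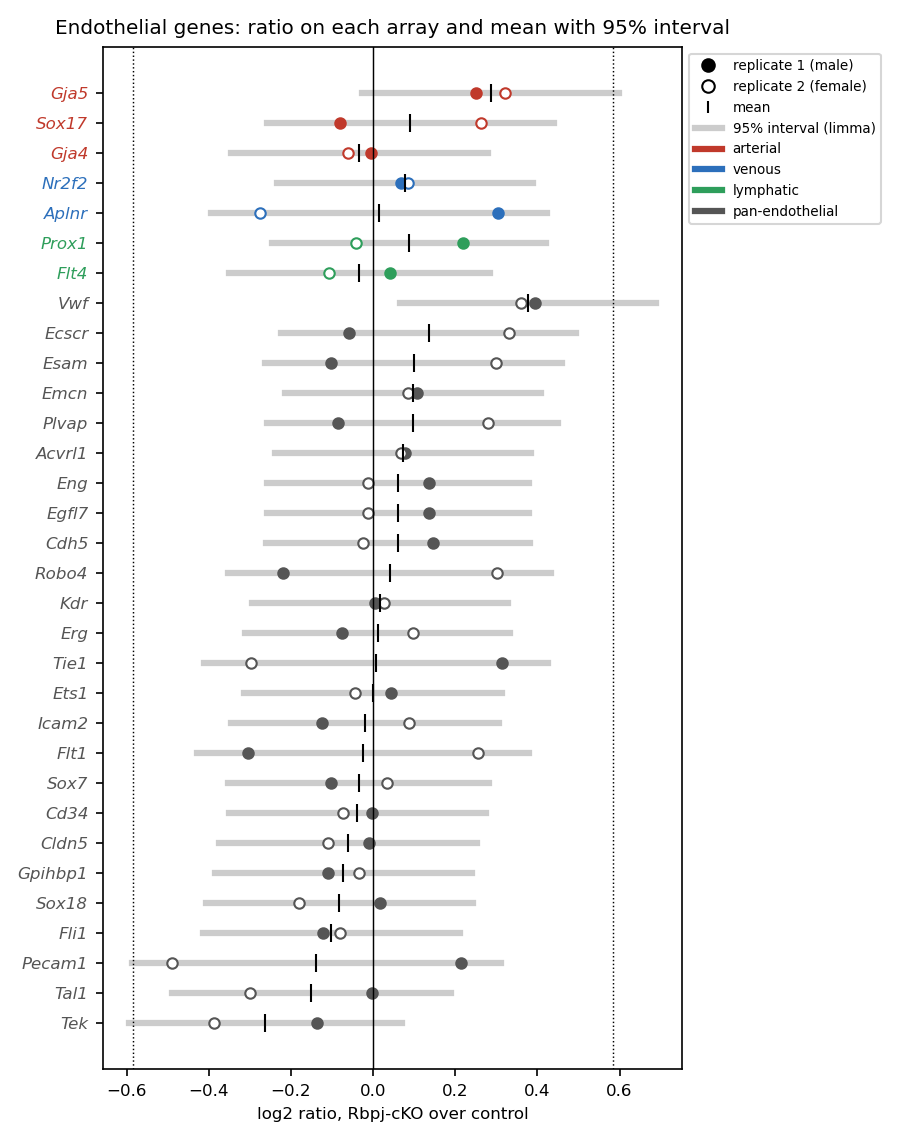
Log2 ratio of Rbpj-cKO over control (x axis) of each member on replicate 1 (filled) and replicate 2 (open), with the mean (tick) and its 95% interval from limma (grey bar); dotted lines mark 1.5-fold. The interval holds 0 for 31 of 32 members, and Vwf is the exception.

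In sign, 6 members were higher in Rbpj-cKO on both arrays (Kdr, Emcn, Nr2f2, Gja5, Acvrl1 and Vwf), which is 6 of 32 where all genes gave 16.0%. The 7 members lower on both (Tek, Cldn5, Gpihbp1, Gja4, Cd34, Fli1 and Tal1) compare with 14.7% of all genes. With ratios centred on each array's median in place of loess, 1 member was lower on both. The other 19 changed sign between the arrays: 10 exceeded control on replicate 1 only and 9 on replicate 2 only, 59.4% of the members against 69.2% of all genes. No member was at least 1.5-fold higher on both arrays (0.132% of all genes) or at least 1.5-fold lower on both (0.0636%). The 32 members that stayed under 1.5-fold on both arrays compare with 96.2% of all genes. No gene on the array had an adjusted p under 0.05 (0%, smallest 0.221), so a count of 0 among the members is the background count too.

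The precision of these values can be stated. The moderated standard error of a member's mean log2 ratio was between 0.13 and 0.19 (median 0.13). It came from 2 arrays with 1 residual degree of freedom and a spread shared across genes. Since the arrays differ in sex and dye orientation, that spread holds any such difference too. For 28 of 32 members the 95% interval lay within 1.5-fold both ways, and 4 intervals (Vwf, Gja5, Tek and Pecam1) reached past it. The median of the members was 0.0007 on replicate 1 and -0.013 on replicate 2, beside 0.0012 and 0.0045 for all genes. The median size of a member's mean log2 ratio was 0.067, beside 0.049 for all genes. Vwf, Gja5 and Tek were the 3 members with a mean over 0.25 in size (1.19-fold), a size that 4.63% of all genes had.

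**Figure D3:**
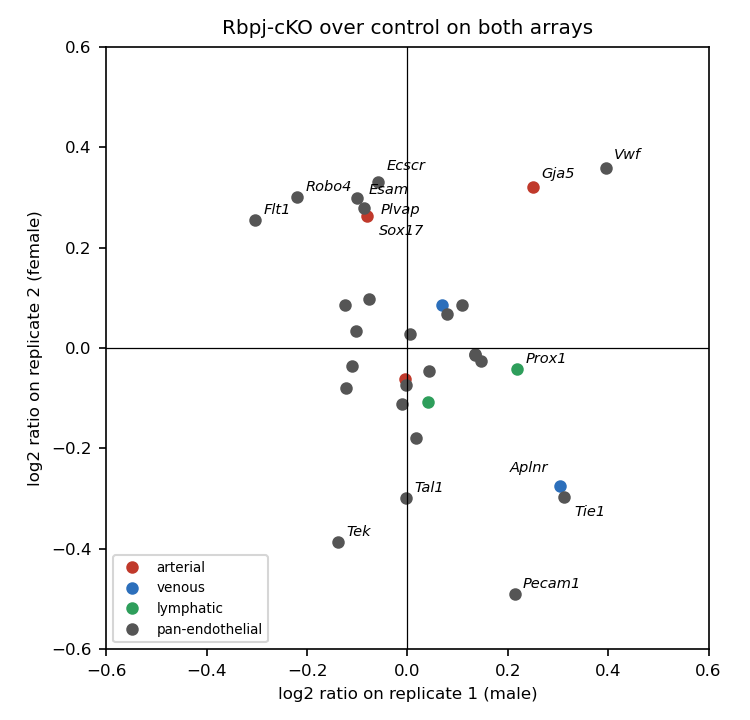
Log2 ratio of Rbpj-cKO over control on replicate 2 (female, y axis) against replicate 1 (male, x axis) for the 32 members, coloured by class. Vwf and Gja5 stand apart at the upper right and Tek at the lower left, while Pecam1, Tie1, Aplnr, Flt1 and Robo4 lie in the quadrants where the arrays gave opposite signs.

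The arterial members were compared with the venous and lymphatic ones because Notch signalling is linked to arterial identity. Gja5 (connexin 40, a gap junction protein of arterial endothelium, chr3:96857349-96857408) read 639 in Rbpj-cKO against 537 in control and 702 against 562. Both Rbpj-cKO channels were above both control channels, an order that Emcn and Nr2f2 shared with smaller ratios. Its share among all genes was not counted. The log2 ratios of Gja5 were 0.25 and 0.32, averaging 0.29 ± 0.050 (SD, n = 2) or 1.22-fold. The interval was -0.03 to 0.60 and the adjusted p 0.99998 (limma). A second, dimmer Gja5 probe, at chr3:96881280, read 111 against 107 and 105 against 104 (0.05 and 0.02), close to the lowest measurable signal, and another did not pass the filter. With the mean of its passing probes, the mean log2 ratio of Gja5 was 0.16. Gja4 (connexin 37, also of arterial endothelium, chr4:126988848-126988907) read 1016 against 1020 and 912 against 952. At -0.0053 and -0.062 the 2 arterial connexins did not go the same way.

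Sox17 (the SoxF factor of arterial endothelium, chr1:4481503-4481562) read 942 in Rbpj-cKO against 997 in control and 1048 against 873. A second Sox17 probe, at chr1:4481038, went the same way with wider ratios, 425 against 502 (-0.24) and 513 against 363 (0.50). Both probes were lower in Rbpj-cKO in the male pair and higher in the female pair. Of the 3 arterial genes, 1 was thus higher on both arrays, 1 was lower on both and 1 turned.

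Of the venous members, Nr2f2 (COUP-TFII, a venous regulator that mesenchymal cells also express, chr7:77496873-77496932) was slightly higher on both arrays, at 29464 against 28087 and 29586 against 27892 (0.07 and 0.09). Its level is that of the whole ureter and not of veins alone. Aplnr (the apelin receptor of venous and sprouting endothelium, chr2:84979638-84979697) turned, with 2438 against 1974 and 2177 against 2635 (0.30 and -0.28).

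The lymphatic members were read close to the limit of detection. Prox1 (the regulator of lymphatic identity, chr1:191945785-191945844) read 147 in Rbpj-cKO against 127 in control and 132 against 136, or 0.22 and -0.04. Flt4 (VEGF receptor 3, the receptor for VEGF-C, chr11:49465646-49465705) read 170 against 165 and 152 against 164, or 0.04 and -0.11. Both exceeded control in the male pair only, within intervals of -0.25 to 0.42 and -0.35 to 0.29. The channels of both genes lay between 127 and 170, within reach of the lowest signals well above background.

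By class, the median log2 ratio of the 3 arterial members was -0.0053 on replicate 1 and 0.26 on replicate 2. That of the 2 venous members was 0.19 and -0.10, and that of the 2 lymphatic members 0.13 and -0.07. The 25 pan-endothelial members had -0.0037 and -0.013. Arterial minus venous was -0.19 on replicate 1 and 0.36 on replicate 2 (mean 0.08 ± 0.39, SD, n = 2), and arterial minus lymphatic -0.13 and 0.34 (0.10 ± 0.33). Venous minus lymphatic was 0.06 and -0.02 (0.02 ± 0.055). Every difference between classes changed sign between the arrays. With 2 arrays, exact sign flips allow no two-sided p under 0.5, so no test was made.

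Probes of the same gene give a further view of the spread, since they read the same RNA. In Plvap the brighter probe had log2 ratios of -0.09 and 0.28, and a dimmer one, at chr8:74030739, had 0.31 and -0.40 (438 against 353 and 393 against 517): the probes gave opposite signs on each array. In Kdr the second probe, at chr5:76330395, had 0.16 and -0.36 (4110 against 3682 and 2563 against 3289), beside 0.0041 and 0.027 for the first. In Flt1 the second passing probe, at chr5:148446872, had 0.16 and -0.06 (1472 against 1318 and 1409 against 1468), the reverse of the first on each array. The second Ets1 probe stayed near 0, at -0.0225 and -0.0069. The second Cd34 probe, at chr1:196785280, was lower in Rbpj-cKO by the same amount on both arrays (265 against 301 and 267 against 303, or -0.18 and -0.19), where the first was near 0. Whether these probes read the same transcripts, and whether they lie in an exon or a UTR, was not assigned here.

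The part of a ratio that turned between the arrays moved with the base composition of the probe. This part was taken as the ratio on replicate 1 minus that on replicate 2, divided by the number of arrays. Over the 40 passing member probes it correlated with the share of G and C in the probe at r = 0.53, and over all 26980 passing probes at r = 0.25. These are descriptions across probes, all read on the same arrays. Of 12 member probes with at least 50% G and C, 10 were above 0, as were 70.8% of all such probes. Of 11 member probes with at most 35%, 9 were below 0, as were 64.9% of all such probes. The Plvap probes had 50% (-0.18) and 55% (0.35), and the Kdr probes 35% (-0.01) and 55% (0.26). Flt1 went the other way, with the probe of lower share above 0. These limits were chosen after the values were seen. The mean of the ratios on both arrays also varied with the share of G and C over all passing probes, at r = -0.15. Over the member probes that correlation was -0.07. The part of base composition in the members' ratios was not tested.

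**Figure D4:**
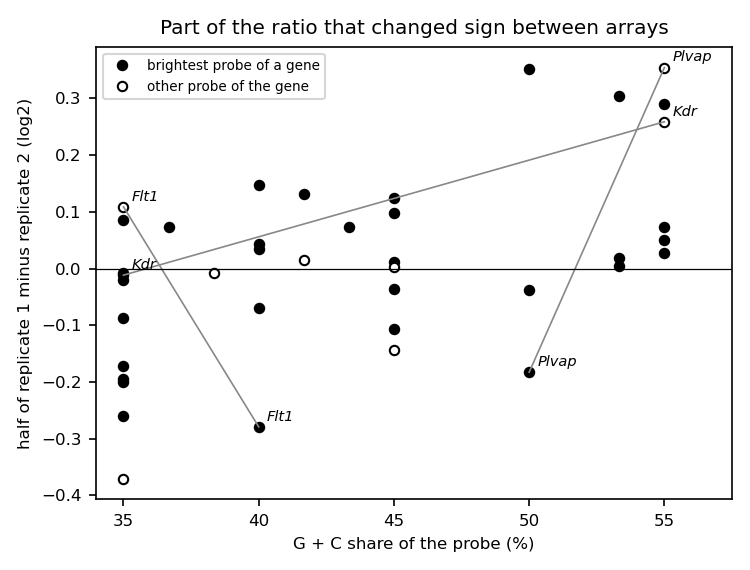
The part of the log2 ratio that turned between arrays (y axis) against the share of G and C in the probe (x axis, %), for the 40 passing probes of the 32 members; filled points are the brightest probe of a gene, and lines join the probes of Plvap, Kdr and Flt1. Points at 50% and above lie mostly above 0 and points at 35% mostly below.

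Of 64 measured further genes of the same vessels and pathways, 59 stayed under 1.5-fold on both arrays, where 96.2% of all genes did. The other 5 were Hey1 and Hey2 of the arterial list, Nrp2 of the venous list, and Arhgef15 and Mcam of the endothelial list. Beside the counts by sign in this list and those below, 16.0% of all genes were higher on both arrays and 14.7% lower on both. Of 12 measured ligands of these receptors, 4 exceeded control on both arrays, 5 were below it on both and none reached 1.5-fold, with medians of -0.0058 and -0.024. Angpt1 (the activating ligand of TIE2, which mesenchyme secretes) had 0.21 and 0.38, Slit2 (a ligand of the roundabout family) 0.15 and 0.33, and Apela (a ligand of the apelin receptor) -0.21 and -0.46. Vegfa turned, at 0.29 and -0.30. None had an adjusted p under 0.05 (limma).

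Of 12 further arterial genes 4 were higher on both arrays and 3 lower, and the medians were 0.07 and -0.14. Hey1 and Hey2, transcription factors that are classic targets of Notch in arteries and that other cell types also express, were the 2 genes of this list at least 1.5-fold higher on both arrays. Hey1 read 4958 in Rbpj-cKO against 2834 in control and 6364 against 2474 (0.81 and 1.36), and Hey2 425 against 234 and 556 against 294 (0.86 and 0.92). Their adjusted p-values were 0.43 and 0.37 (limma). Notch1 had 0.36 and 0.18, while Dll4 and Efnb2, both arterial, had 0.01 and -0.24, and -0.09 and -0.04. Both arterial connexins had lower ratios than Hey1 and Hey2 on each array, a difference that was not tested, and the cells that carried the Hey transcripts were not identified here.

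Of 5 further venous genes 4 were higher on both arrays and none lower, where all genes gave 16.0% and 14.7%. Nrp2, Ackr1 and Ephb4 each had a ratio of at most 0.02 on 1 of the arrays. Nrp2 (a semaphorin and VEGF-C co-receptor of veins and lymphatics) had 0.02 and 0.73, Ackr1 (a chemokine receptor of venules) 0.40 and 0.02, and Ephb4 (the venous ephrin receptor) 0.01 and 0.16. Of 6 further lymphatic genes 1 was higher on both arrays (Mmrn1, 0.20 and 0.10) and 1 lower (Itga9, -0.26 and -0.07). Lyve1, a hyaluronan receptor of lymphatic endothelium and some macrophages, turned at 0.26 and -0.21. Of 29 further endothelial genes 9 were higher on both arrays and 3 lower, with medians of 0.04 and 0.02. Tspan18 (0.27 and 0.11), Rhoj (0.04 and 0.29) and Apold1 (-0.27 and -0.06) had the largest means among those with a constant sign. Past 1.5-fold on at least 1 array, with opposite signs on the arrays, were Arhgef15 (a regulator of small GTPases in endothelium, 0.79 and -0.70) and Mcam (CD146, an adhesion molecule of endothelium, pericytes and smooth muscle, 0.73 and -0.57). Both had wider ratios than any of the 32 members.

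Markers of several other cells in the dissected tissue had wider median ratios than the 32 endothelial members. A shorter list of 5 endothelial markers (Pecam1, Cdh5, Kdr, Tek and Tie1) had medians of 0.15 and -0.30. On replicate 2 this was wider than the median of the platelet (-0.20) or pericyte (-0.10) list. Of 10 erythroid genes, which mark the blood inside vessels, 8 stood above control in the male pair and below it in the female pair. Of all 20438 genes, 7009 did so. The erythroid medians were 0.40 and -0.66. The summed level of the erythroid genes was 655419 and 299082 in Rbpj-cKO and 373851 and 580748 in control. Such a sum, here and below, adds different probes and gives the brightest the most weight. All 9 skeletal muscle genes were likewise above control in the male pair only, with medians of 0.63 and -0.96. Their sums were 19147 and 9792 in Rbpj-cKO and 9881 and 26644 in control. Of 10 macrophage genes 4 were higher on both arrays and none lower, at medians of 0.47 and -0.03, with sums of 21392 and 17260 against 15789 and 17127. Of 5 platelet genes none kept its sign (0.15 and -0.20), where 69.2% of all genes changed sign. Their sums were 5213 and 3983 against 4558 and 4550.

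The 6 neuron and chromaffin markers were the only such list in which every gene was higher on both arrays, with medians of 1.69 and 0.86 and sums of 98081 and 27714 in Rbpj-cKO against 24116 and 14804 in control. Of 8 pericyte genes, which mark the cells that wrap capillaries, 1 was higher and 1 lower on both arrays (0.08 and -0.10), with sums of 48064 and 43266 against 45143 and 45965. Mesothelial genes had medians of 0.81 and 0.07, smooth muscle genes 0.04 and -0.31, urothelial genes -0.07 and 0.04, and ureteric mesenchyme genes -0.0027 and 0.020. The summed level of the 32 endothelial members was 177273 and 174973 in Rbpj-cKO and 174247 and 171418 in control. This sum leans on the brightest probes, those of Egfl7, Nr2f2 and Cd34. For the 5 endothelial markers Pecam1, Cdh5, Kdr, Tek and Tie1 the sums were 15600 and 13477 against 14697 and 14175, higher on replicate 1 and lower on replicate 2. The part of these other cells in the ratios of Pecam1, Vwf, Tal1 and the remaining members was not tested.

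**Figure D5:**
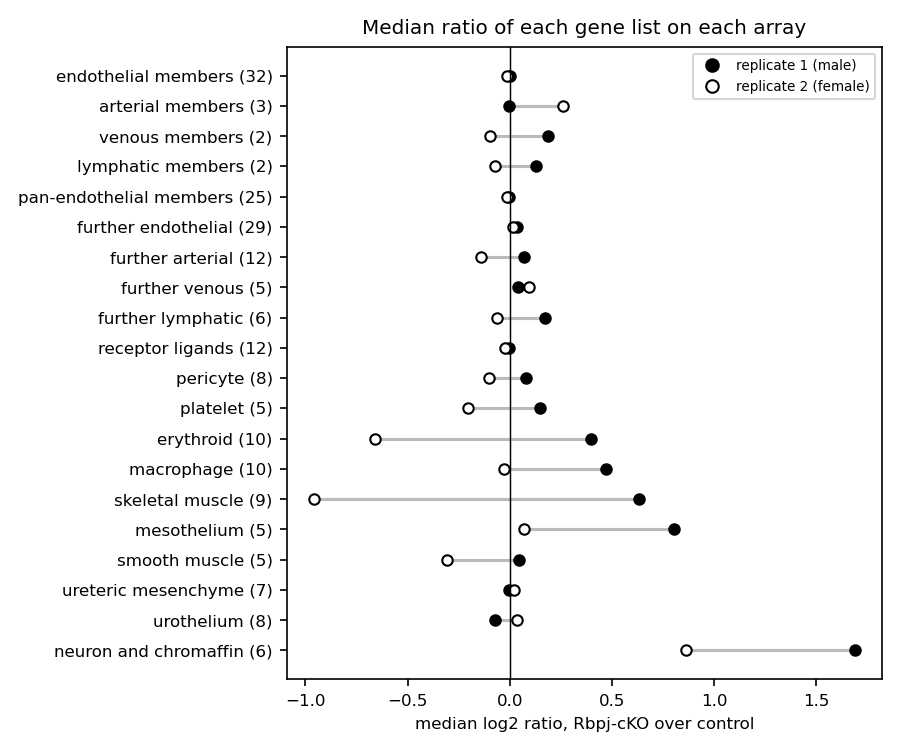
Median log2 ratio of Rbpj-cKO over control (x axis) of each gene list on replicate 1 (filled) and replicate 2 (open), with the number of measured genes in brackets. The 32 endothelial members sit at 0.0007 and -0.013, while erythroid and skeletal muscle lists spread to both sides of 0 and the neuron and chromaffin list lies at 1.69 and 0.86. A list of 5 endothelial markers, at 0.15 and -0.30, is not drawn.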

How the data were processed

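Each spot's mean and local background median intensity, red and green, was deposited on a linear scale without normalization, per the file headers, as were the scanner software's processed intensity and flags coded as other values of 0 or 1. Scans were read with Agilent Feature Extraction, version 10.7.3.1 in the submitters' processing notes. Probe positions are on mm9, per the file headers. The authors' deposited series table, an unstated score read as a signed fold change since no value lies between -1 and 1 and its log2 size ran with the processed ratios (r = 0.78 and 0.85), served as an alternative. How it was made was not given in the sources used here.

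In limma 3.58.1 (R 4.3.3) background was corrected by normexp (offset 50), ratios were normalized within arrays by loess with weight 0 for 17263 control spots, spots with an outlier flag (3.57% and 3.90%) were left out and the 4 spots of a probe averaged. Ratios were turned to Rbpj-cKO over control, which cancels a dye effect common to both arrays in the mean. Levels came from Aquantile normalization. A probe passed with at least 2 spots well above background in a channel on each array. The mean was tested against 0 with lmFit and eBayes, two-sided. With 2 arrays the number of arrays limits precision, and p-values measure only the spread between these samples. The arrays differ in sex and dye orientation, so any difference due to either is part of that spread, of the intervals and of the p-values. Every member is named; of each further list, the 3 genes with the largest mean among those of constant sign are named, and others were named after their values were seen. Members, classes and lists were chosen with earlier results of these data known. The fit was run on simulated data in which the arrays deviated independently of each other. Ratios that run against each other, as on the real arrays, were not simulated, so that run does not cover them. Alternatives changed background correction, normalization, filter, probe choice, moderation, classes and the array used.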

Additional observations from a re-analysis of the deposited data

Results flagged for a closer look

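Of the members, 9 changed sign between the male pair and the female pair, by more than 2 standard deviations of a probe's spots on each array. This limit covers the noise between spots of an array only, not the spread between samples, and 9 of 32 (28.1%) compares with 32.1% of all 20438 genes. The male minus female difference of the log2 ratio, Rbpj-cKO over control, was 0.70 for Pecam1, 0.61 for Tie1 and 0.58 for Aplnr, which were higher in Rbpj-cKO in males and lower in females. It was -0.56 for Flt1, -0.52 for Robo4, -0.40 for Esam, -0.37 for Plvap, -0.34 for Sox17 and -0.21 for Icam2, which went the other way. These values are from the brightest probe of each gene. The second passing probe went against the first for Plvap (0.31 in the male pair and -0.40 in the female pair) and Flt1 (0.16 and -0.06). For Sox17 it went with the first (-0.24 and 0.50). The class medians also changed sign, with a difference of -0.27 for the arterial, 0.28 for the venous and 0.20 for the lymphatic members. With 1 array per sex these differences were not tested, and sex and dye orientation cannot be told apart.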

How the results depend on the processing

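No member was called at an adjusted p under 0.05 (limma) under any alternative run, and members at an unadjusted p under 0.05 numbered 0 to 2 over these settings. Over all genes, 1 was called with the processed signals and 5 with trend and robust moderation, against 0 otherwise. Median centring left 1 member lower on both arrays in place of 7. It moved the median of the members' mean ratios from 0.013 to 0.0022 and that of the pan-endothelial members from 0.0080 to -0.0068. Leaving out 1 array gave -0.013 to 0.00070 and -0.013 to -0.0037 for these medians. Apart from leaving out an array, alternatives changed 104 member values at all, and 99 of these kept their sign. The 5 that reversed became as follows: Kdr (-0.042) and Flt1 (0.013) with the mean of a gene's probes, Tie1 (-0.0068) and Aplnr (-0.00062) with median centring, and Ets1 (0.016) in the authors' deposited table. The cause was not tested. With 1 array left, the 19 members whose arrays differ in sign took the opposite sign to their mean on 1 of them, at values from -0.30 (Tie1) to 0.25 (Flt1). The 3 class medians and their differences also changed sign between the arrays. Under the other alternatives, wider classes among them (Acvrl1 added to the arterial, Emcn and Vwf to the venous and Nr2f2 to the lymphatic members), the difference of the medians of mean ratios ran from -0.0049 to 0.064 for arterial minus venous, 0.0050 to 0.082 for arterial minus lymphatic and -0.017 to 0.018 for venous minus lymphatic. Prox1 and Flt4 lay near the lowest signals above background. With the processed signals and in the authors' table, second probes of Sox17 (0.61) and Vwf (0.71) passed 1.5-fold on replicate 2. In the main processing these probes had 0.50 and 0.27 on that array. Both genotypes share each array, so the test of the ratio is already a paired one.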
